A study of Mus musculus with 1376 samples.

Results

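Within single cells sorted from the mouse lung, 2 sets of cells were compared: 61 cells that carried Lgr5 and Pappa2 with related genes, a combination linked to alveolar myofibroblasts, and 33, 45 and 25 cells of 3 mice that carried Col28a1 and Slc36a2 with related genes, linked to alveolar fibroblasts. They were 4.43% and 7.49% of all deposited cells. The cells were selected on their own expression. A cell entered the first set when at least 3 of the 6 genes Lgr5, Pappa2, Trim67, Rbfox1, Wnt11 and Igfbp3 each reached 20 CPM (counts per 1000000 counts of the cell). It entered the second set when at least 3 of the 7 genes Col28a1, Pla1a, Upk1b, Scn3a, Slc36a2, Plcxd3 and Slc27a6 did so. No cell met both rules, and the other 1212 cells of the series met neither. The sets are called Lgr5-Pappa2 cells and Col28a1-Slc36a2 cells below, after the genes that chose them.

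The alveolus is the site of gas exchange, and its thin walls hold several kinds of mesenchymal cell. Alveolar myofibroblasts are contractile cells known for their part in laying down elastin while the alveolar walls form. Alveolar fibroblasts lie close to the epithelium, often store lipid and retinoid, and make matrix and signals for epithelial stem cells. Lgr5 and Lgr6 encode receptors for R-spondins, which strengthen Wnt signals. Hhip encodes a membrane protein that binds and holds back Hedgehog ligands.

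All cells came from lungs of ACTA2GFP:CSPG4dsRED mice, a strain named for a green reporter of smooth muscle actin (Acta2) and a red reporter of the NG2 proteoglycan (Cspg4), and all groups share both reporters, with no treatment named in the labels. The labels give an age of 8 to 30 weeks, where the series description says 8 to 21 weeks and speaks of male mice. The labels name 3 mice: male mouse 1 on plates 045s and 046s, and male mouse 2 and female mouse 1 on a plate each. The extract protocol speaks of heart, although the tissue label says lung. For male mouse 2 and female mouse 1 plate and mouse cannot be told apart, and for the female mouse sex cannot either. Cells were sorted singly into 384-well plates, and the labels do not state the gate. The part of a gate on the reporters in which cells were caught was not tested. Libraries were made by Smart-Seq2, which reads full-length cDNA without molecular identifiers.

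Values of the 3 mice are given throughout in the order male mouse 1, male mouse 2, female mouse 1, and in that order the Lgr5-Pappa2 set held 10, 31 and 20 cells and the Col28a1-Slc36a2 set 33, 45 and 25. The share of Lgr5-Pappa2 cells was 1.53% in male mouse 1 (Clopper-Pearson 95% interval 0.737 to 2.80%), 8.81% in male mouse 2 (6.06 to 12.3%) and 5.39% in female mouse 1 (3.32 to 8.20%). That of Col28a1-Slc36a2 cells was 5.05% (3.50 to 7.02%), 12.8% (9.48 to 16.7%) and 6.74% (4.41 to 9.79%). Both shares were highest in male mouse 2 and lowest in male mouse 1, but asking for 2 rule genes put the Lgr5-Pappa2 share of female mouse 1 (13.2%) above that of male mouse 2 (11.4%). The intervals cover counting error only. With 1 value per mouse and 1 sort per mouse, no test of these shares was made.

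In the rule genes, which are a description and no result, Lgr5 reached 20 CPM in 52 of the 61 Lgr5-Pappa2 cells, Pappa2 in 42 and Igfbp3 in 58, while Trim67, Rbfox1 and Wnt11 did so in 21, 25 and 23. Igfbp3, which encodes a binding protein of insulin-like growth factors, also reached 20 CPM in 52 of the Col28a1-Slc36a2 cells. Slc36a2, an amino acid transporter gene, did so in 95 of them and Upk1b, a uroplakin gene, in 81, with 38.8% to 52.4% of these cells for the other 5 genes. The third-highest rule gene of the Lgr5-Pappa2 cell nearest the threshold had 27.1 CPM and that of the cell just outside had 18.4 CPM. For Col28a1-Slc36a2 cells these values were 20.2 and 19.7 CPM. The 53 cells that fell 1 gene short of the Lgr5-Pappa2 rule and lay in neither set had Hhip at 20 CPM in 49, Aspn in 42 and Pdgfra in 15, and so were close to that set in some of its markers.

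Depth differed between the sets. The median cell had 271384, 180284 and 266962 counts and 4021, 3599 and 4613 detected genes in Lgr5-Pappa2 cells, against 403082, 275190 and 343625 counts and 5649, 5390 and 5806 genes in Col28a1-Slc36a2 cells. The Col28a1-Slc36a2 medians were the higher in each of the 3 mice. Transcripts of other cell types also differed: Sftpc, the surfactant protein gene of alveolar type 2 cells, reached 20 CPM in 8.2% of Lgr5-Pappa2 cells and 31.1% of Col28a1-Slc36a2 cells, and Lyz2, a lysozyme gene of myeloid cells, in 6.56% and 26.2%. The defining genes Epcam of epithelium and Ptprc of leukocytes reached it in 0% and 0.971% and in 1.64% and 0% of the 2 sets. A share of 0%, here and below, allows up to 4.92% of Lgr5-Pappa2 cells and 2.91% of Col28a1-Slc36a2 cells (3 cells of each set). In the 1212 other cells Sftpc and Lyz2 did so in 18% and 21.7%. At least 3 markers of 1 such list reached 20 CPM in 3 Lgr5-Pappa2 cells and 15 Col28a1-Slc36a2 cells, 10 of the 15 in male mouse 1. Their part in the results was not tested, and values without these 18 cells are given where they end a call.

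Counts were summed over the cells of each set in each mouse, and the 6 sums were tested with the mouse as a block. Each set's total came from 3068548 to 13677557 counts per mouse. Of 12652 genes tested outside the 13 rule genes, 1.41% passed an adjusted p of 0.05 in edgeR's quasi-likelihood test, 78 (0.617%) higher in Lgr5-Pappa2 cells and 100 (0.790%) higher in Col28a1-Slc36a2 cells. The median log2 fold change over all tested genes, Lgr5-Pappa2 over Col28a1-Slc36a2, was -0.34. A positive value below means a higher level in Lgr5-Pappa2 cells, a value after ± beside it is its standard error, and levels are CPM of the sums scaled by TMM factors. Genes that vary with the 13 rule genes share in the choice of the cells. The p-values weigh the size of a difference against its modelled spread over 3 mice. They do not say that it arose apart from the choice. DESeq2 called 2.79% of its tested genes higher and 8.01% lower, so that 25.8% of its calls were higher in Lgr5-Pappa2 cells, against 43.8% in edgeR. Without male mouse 2, edgeR called 49 higher and 68 lower.

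**Figure D1:**
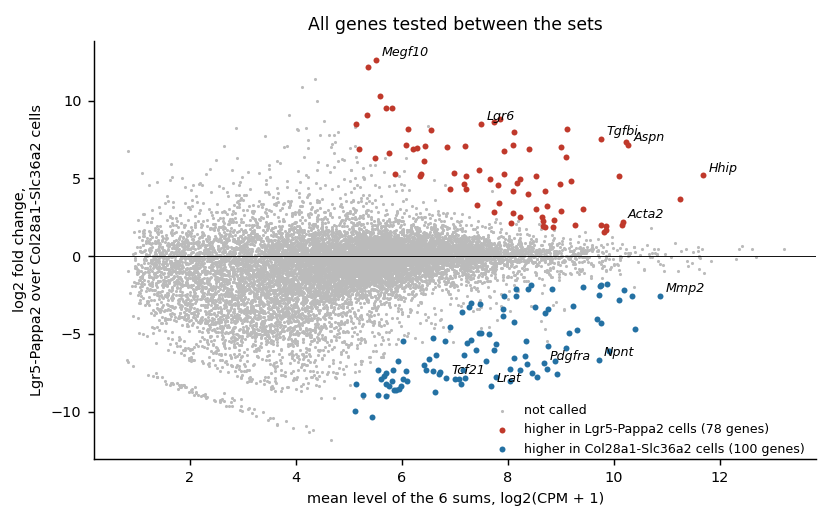
Each point is 1 of 12652 tested genes, with the mean level of the 6 sums in log2(CPM + 1) on the x axis and the fitted log2 fold change of Lgr5-Pappa2 over Col28a1-Slc36a2 cells on the y axis. Red points are the 78 genes higher in Lgr5-Pappa2 cells and blue points the 100 genes higher in Col28a1-Slc36a2 cells, and the grey points include lowly counted genes with fold changes as wide as those called.

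Markers that had no part in the rule were compared first, as a check of the cell type labels. Of 10 alveolar myofibroblast markers, 8 were higher in Lgr5-Pappa2 cells, 1 (Fgf18) was not called and 1 (Pdgfra) was higher in the other set. The median log2 fold change of the 10 was 4.44. Of 12 alveolar fibroblast markers, 9 were higher in Col28a1-Slc36a2 cells and 3 were not called, with a median of -6.34. The lists were drawn up with earlier results of these data known, and so are no independent support of their direction.

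Hhip (chr8:79965851-80058006 in GRCm38), the Hedgehog-binding protein gene, had 6544, 6912 and 5783 CPM in Lgr5-Pappa2 cells and 178.5, 146.8 and 200.5 CPM in Col28a1-Slc36a2 cells (log2 fold change 5.20 ± 0.27, adjusted p = 0.000439). The 3 Lgr5-Pappa2 values lay together and far above the other 3. Hhip reached 20 CPM in every Lgr5-Pappa2 cell, with a median of 6683 CPM, and in 60 Col28a1-Slc36a2 cells, with a median over that set of 34.3 CPM. Single cells overlapped, as the highest Col28a1-Slc36a2 cell had 2141 CPM of Hhip and the lowest Lgr5-Pappa2 cell 873.3. Lgr6, the R-spondin receptor gene related to Lgr5, had 332.4, 330.1 and 414.4 CPM against 0.781, 0.574 and 1.83 (log2 fold change 8.53 ± 0.63, adjusted p = 0.000804). It was uneven within its set, reaching 20 CPM in 54.1% of Lgr5-Pappa2 cells and 0% of Col28a1-Slc36a2 cells. Aspn, which encodes the small matrix proteoglycan asporin, had 3160.1, 3316 and 865.5 CPM against 25.8, 25.2 and 4.52 (log2 fold change 7.18 ± 0.34, adjusted p = 0.000439), with the female mouse lowest in both sets.

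Enpp2 encodes autotaxin, the secreted enzyme that makes lysophosphatidic acid. It had 4909.7, 5902 and 2837 CPM in Lgr5-Pappa2 cells and 401.5, 315.1 and 309.2 CPM in Col28a1-Slc36a2 cells (log2 fold change 3.68 ± 0.29, adjusted p = 0.000972), so it was well above 0 in both. P2ry14, a receptor gene for UDP-sugars, had 1132, 1375 and 736.8 against 10.5, 5.58 and 36 CPM (log2 fold change 6.38 ± 0.78, adjusted p = 0.00921). Fgf18, which encodes a growth factor, had 32.3, 47.4 and 23.3 CPM against 3.9, 0 and 0.108 and did not pass (adjusted p = 0.306), though the 2 groups did not overlap.

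Pdgfra (chr5:75152292-75198215) encodes the platelet-derived growth factor receptor alpha that marks alveolar myofibroblasts of the growing lung and many lung fibroblasts. It had 1.86, 15.7 and 7.36 CPM in Lgr5-Pappa2 cells and 465.9, 1105 and 857.5 CPM in Col28a1-Slc36a2 cells (log2 fold change -6.89 ± 0.52, adjusted p = 0.000804). Only 2 of 61 Lgr5-Pappa2 cells had 20 CPM of it, against 92.2% of Col28a1-Slc36a2 cells. This goes against the label of alveolar myofibroblast, and the set is therefore named by its genes.

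Among the alveolar fibroblast markers, Npnt, which encodes the integrin ligand nephronectin, had 5.95, 35.5 and 17.6 CPM against 1341, 2057 and 1569.6 in Col28a1-Slc36a2 cells (log2 fold change -6.66 ± 0.49, adjusted p = 0.000804). Its receptor subunit gene Itga8 had 5.58, 5.15 and 4.13 against 443.4, 1103 and 413.5 CPM (log2 fold change -6.91 ± 0.51, adjusted p = 0.000804), and no Lgr5-Pappa2 cell had 20 CPM of Itga8. All other cells together had 572.6, 1210 and 248.4 CPM of Itga8 (without TMM factors), above Col28a1-Slc36a2 cells in both male mice. Npnt was lower in the other cells than in Col28a1-Slc36a2 cells, with 334.8, 532.4 and 390.5 CPM. Tcf21, a transcription factor gene of lung fibroblast precursors, had 0.744, 0.429 and 2.33 against 161.1, 228.5 and 289.8 CPM (log2 fold change -7.83 ± 0.80, adjusted p = 0.00387). Gpc3, the glypican 3 gene, had 2.6, 3.72 and 12.2 against 903.8, 1048 and 944.98 CPM, and Limch1, which encodes an actin-associated protein, had 4.83, 7.44 and 4.31 against 1009, 795.2 and 754.4. In each of these 5 genes all 3 Col28a1-Slc36a2 values were above all 3 Lgr5-Pappa2 values by more than 10 times.

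Inmt and Ces1d, which encode a methyltransferase of amines and a carboxylesterase, were also higher in Col28a1-Slc36a2 cells and were not near 0 in the other set: Inmt had 291.1, 46.9 and 69.9 against 1877, 3264 and 2526 CPM. Ces1d had 104.5, 124.2 and 20.1 against 681.3, 818.3 and 426.5 CPM (log2 fold change -3.26 ± 0.47, adjusted p = 0.0185). Col13a1, the gene of a membrane-bound collagen, had 0, 2.86 and 31.8 against 168.1, 173.3 and 629.05 CPM. Its adjusted p of 0.0369 became 0.0535 without the 18 cells with markers of other types. Wnt2, which encodes a Wnt ligand of the lung mesenchyme, had 1 count in all Lgr5-Pappa2 cells and 3037 in Col28a1-Slc36a2 cells, a ratio of 1257-fold (95% counting interval 225.4 to 49655). A counting interval, here and below, takes each read as a separate draw. It leaves out copies of a molecule and the spread between cells and mice. The call of Wnt2 was lost in 2 of the fits that left out a mouse, with an adjusted p of 0.107 (male mouse 2 left out) and 0.081 (female mouse 1 left out).

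The 3 alveolar fibroblast markers that were not called differed among themselves. Slc7a10, an amino acid transporter gene, had 11.5, 4.29 and 0 against 72.2, 65.1 and 41 CPM (adjusted p = 0.367). Fgfr4, a fibroblast growth factor receptor gene, had 11.9, 0.429 and 1.44 against 42.1, 65.4 and 63.5 CPM (adjusted p = 0.302). Fgf10, the growth factor gene known for its role in epithelial branching, had 205.6, 166.1 and 76.3 against 102.4, 179.6 and 299.1 CPM, and the sets overlapped (log2 fold change -0.34, adjusted p = 0.937). Fgf10 was highest in the first mouse of one set and in the female mouse of the other.

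**Figure D2:**
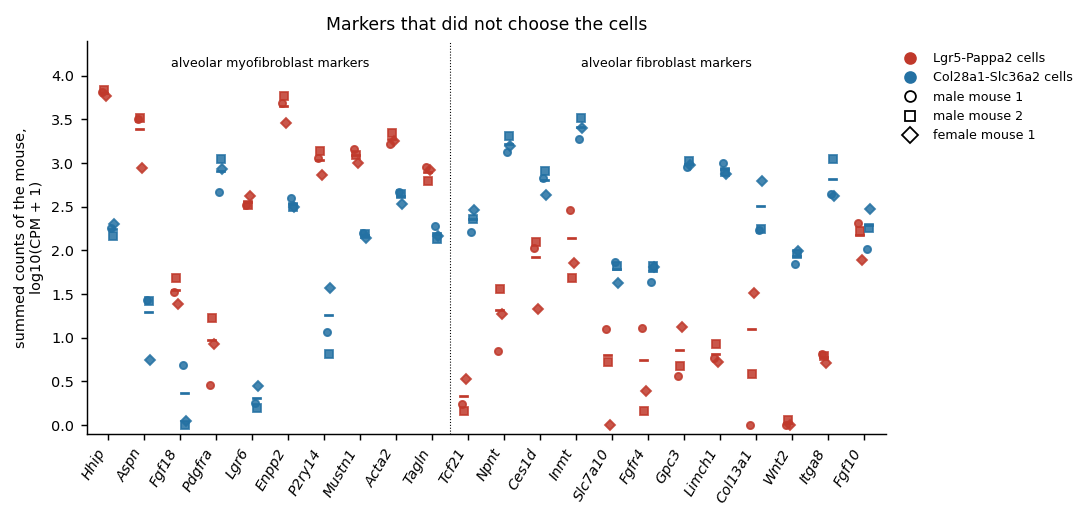
Levels of the 22 markers outside the rule, as log10(CPM + 1) of the summed counts of each mouse, in Lgr5-Pappa2 cells (red) and Col28a1-Slc36a2 cells (blue), with 1 symbol per mouse and a bar at the mean of the 3 mice. Pdgfra sits among the myofibroblast markers with its blue points above the red, and Fgf10 is the fibroblast marker whose points overlap.

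Contractile protein genes came next, because Acta2 drives 1 of the reporters. Of 25 tested, 9 were higher in Lgr5-Pappa2 cells (Acta2, Actg2, Myh11, Myl9, Tagln, Lmod1, Des, Pdlim3 and Mustn1) and 16 were not called. None was higher in the other set, and the list's median log2 fold change was 1.42. Leaving out female mouse 1 reduced the 9 calls to 3, and leaving out male mouse 2 to 5. Many of these genes are controlled by serum response factor, which binds the CArG box, a 10-base motif with paired C at one end, paired G at the other and A or T between. The 250 bases before the start of Acta2 (chr19:34255374-34255623, minus strand) and of Myl9 (chr2:156775214-156775463, plus strand) are shown from RefSeq (build GRCm38.p6) because these are contractile genes that moved together and whose windows hold the motif. Capitals mark CArG boxes with at most 1 mismatch, found on the printed strand (the motif reads alike on both).
Acta2: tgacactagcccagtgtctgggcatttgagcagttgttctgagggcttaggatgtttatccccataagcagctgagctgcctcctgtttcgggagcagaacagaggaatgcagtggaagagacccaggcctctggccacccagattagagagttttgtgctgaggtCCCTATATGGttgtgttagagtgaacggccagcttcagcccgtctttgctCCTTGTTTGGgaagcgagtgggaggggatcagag
Myl9: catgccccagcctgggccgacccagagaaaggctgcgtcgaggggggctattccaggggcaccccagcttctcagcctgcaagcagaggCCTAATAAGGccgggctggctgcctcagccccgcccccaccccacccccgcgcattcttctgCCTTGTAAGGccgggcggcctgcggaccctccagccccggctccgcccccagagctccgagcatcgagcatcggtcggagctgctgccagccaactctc
The Acta2 window holds CCCTATATGG and CCTTGTTTGG, starting 84 and 34 bases before the start and each with 1 mismatch. The Myl9 window holds 1 exact box, CCTAATAAGG, and nearer the start, at 99 bases before it, CCTTGTAAGG with 1 mismatch. Of all 32851 promoter windows of this length, 1.47% hold an exact box and 18.6% one with at most 1 mismatch. Among the 6 called contractile genes with a window in the table, 1 had an exact box and 4 had one with at most 1 mismatch. Among 16 that were not called, these counts were 5 and 8. A match is a description of the letters and not a binding site.

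Acta2 had 1667, 2208 and 1777 CPM in Lgr5-Pappa2 cells and 462.2, 436.9 and 342.4 CPM in Col28a1-Slc36a2 cells, a 4.56-fold difference (log2 fold change 2.19 ± 0.27, adjusted p = 0.00921). It reached 20 CPM in every cell of both sets and in 99.8% of the other cells, so its presence alone did not part any of them. In the other cells together it had 4518, 6815 and 2775 CPM (here and below without TMM factors), above both sets in every mouse. Tagln, the actin-binding transgelin gene of smooth muscle, showed the same order with 890.8, 622.3 and 825.3 CPM, 190.5, 133.3 and 144.1 CPM and 1718, 2218 and 958.5 CPM in the other cells. Myl9, a myosin regulatory light chain gene, had 955.5, 996.8 and 1000.2 against 215.8, 292.5 and 238.5 CPM (log2 fold change 1.99 ± 0.29, adjusted p = 0.0196). The calls of these 3 genes were each lost in at least 1 fit with a mouse left out: Acta2 (0.0618 without female mouse 1), Tagln (0.0949 without female mouse 1) and Myl9 (0.0711 without male mouse 2, 0.138 without female mouse 1).

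Myh11, the smooth muscle myosin heavy chain gene, had 94.1, 268.4 and 481.9 CPM in Lgr5-Pappa2 cells, 14.1, 7.38 and 15.3 CPM in Col28a1-Slc36a2 cells and 2982, 2941 and 1899.8 CPM in the other cells. The sets did not overlap (log2 fold change 4.33 ± 0.70, adjusted p = 0.028), yet both lay far below the other cells. Single Lgr5-Pappa2 cells were uneven in Myh11, with a median of 25.2 CPM, an upper quartile of 106.2 and a highest value of 2983. Myh11 reached 20 CPM together with Acta2 in 35 of 61 Lgr5-Pappa2 cells, 23 Col28a1-Slc36a2 cells and 1040 of 1212 other cells. Actg2, the enteric smooth muscle actin gene, had 89.6, 275.6 and 462.6 against 10.5, 6.81 and 10.7 CPM. Des, the intermediate filament gene desmin, had 723.1, 411.7 and 848.98 against 83.1, 127.9 and 222.5 CPM. The calls were lost as follows, as adjusted p: Myh11 (0.11 without male mouse 2, 0.19 without female mouse 1), Actg2 (0.0843 without male mouse 2, 0.138 without female mouse 1) and Des (0.0531 without male mouse 1, 0.0551 without male mouse 2, 0.141 without female mouse 1).

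Pdlim3, Mustn1 and Lmod1 kept their calls without each mouse. Pdlim3, which encodes a protein of the actin cytoskeleton, had 654.7, 601.9 and 401.3 CPM against 2.47, 1.72 and 2.37 (log2 fold change 7.96 ± 0.51, adjusted p = 0.000774), and reached 20 CPM in 73.8% of Lgr5-Pappa2 cells and 0% of Col28a1-Slc36a2 cells. Lmod1, the gene of an actin filament nucleator of smooth muscle, had 201.1, 85.1 and 170.6 against 1.95, 0.738 and 0.969 CPM (log2 fold change 6.97 ± 0.84, adjusted p = 0.00893). Mustn1, which encodes a small nuclear protein of muscle and skeleton, had 1431, 1225 and 1004 against 156.7, 152.5 and 137.7 CPM (log2 fold change 3.02 ± 0.30, adjusted p = 0.00318). Pdlim3 and Mustn1 were higher in Lgr5-Pappa2 cells than in the other cells, which had 283.9, 307.4 and 224.95 and 1065, 886.4 and 457.4 CPM. Lmod1 was lower in Lgr5-Pappa2 cells than in the other cells, which had 504.5, 409.3 and 203.3 CPM. Cnn1, the calponin gene of mature smooth muscle, had 21.9, 42.8 and 94.1 against 8.59, 5.58 and 7.21 CPM and was not called (adjusted p = 0.515), with 1249.6, 1438 and 728.02 CPM in the other cells. Cspg4, which drives the second reporter, had 27.5, 33.9 and 126.4 against 38.8, 20.02 and 73.4 CPM, and the sets overlapped (log2 fold change 0.36, adjusted p = 0.955).

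**Figure D3:**
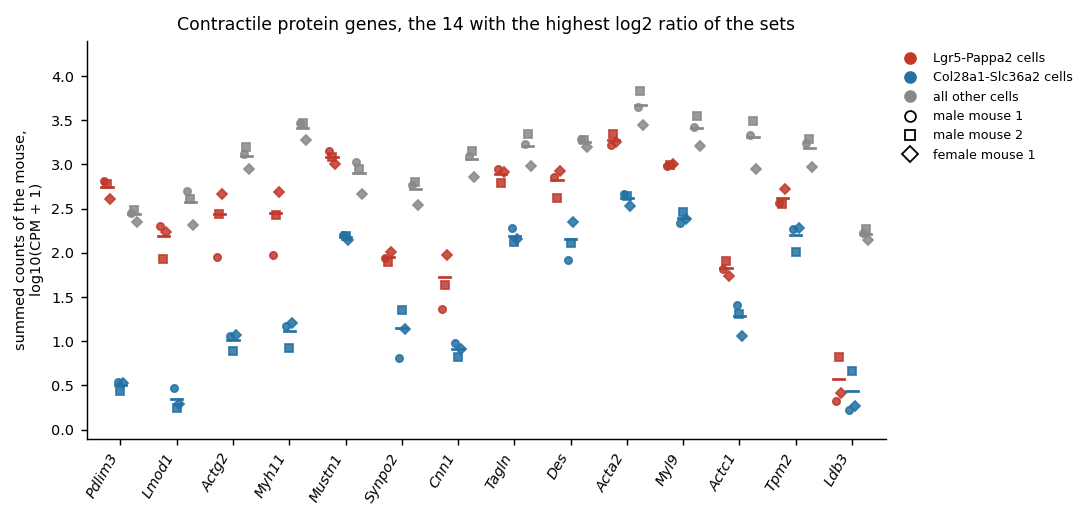
The 14 contractile protein genes with the highest log2 ratio between the sets, as log10(CPM + 1) of the summed counts per mouse, in Lgr5-Pappa2 cells (red), Col28a1-Slc36a2 cells (blue) and all other cells (grey), with bars at the means of 3 mice. The grey points of Acta2, Myh11, Tagln and Cnn1 lie above both sets, while Pdlim3 is highest in red.

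In the matrix lists, more calls were higher in Col28a1-Slc36a2 cells, except among small leucine-rich proteoglycan genes and proteases. Over all genes tested, 0.617% were called higher and 0.790% lower in Lgr5-Pappa2 cells, with a median of -0.34. The called Npnt, Itga8 and Col13a1 are also among the alveolar fibroblast markers above. Of 21 elastic fibre genes tested, 4 were higher in Col28a1-Slc36a2 cells and none in Lgr5-Pappa2 cells (median -0.57). Fbln2, the fibulin 2 gene, had 0.744, 1.72 and 6.82 CPM in Lgr5-Pappa2 cells against 185.8, 164.5 and 234.2 (log2 fold change -6.38 ± 0.85, adjusted p = 0.014). Mfap4, a microfibril-associated gene, had 151.7, 723.4 and 424.7 against 1842, 2759 and 1925 CPM (log2 fold change -2.56 ± 0.38, adjusted p = 0.0196), and Fbn1, the fibrillin gene of microfibrils, 237.9, 315.1 and 620.8 against 1065, 1079 and 1873. Ltbp2, which encodes a microfibril protein, was the fourth with 122.3, 79.1 and 186.6 against 517.9, 389.9 and 690.4 CPM. Calls were lost as adjusted p for Mfap4 (0.105 without the 18 cells with markers of other types), Fbn1 (0.0803 without male mouse 2, 0.124 without female mouse 1) and Ltbp2 (0.195 without male mouse 2, 0.171 without female mouse 1). Eln itself, the elastin gene, was not called, though all 3 of its values were lower in Lgr5-Pappa2 cells: it had 124.2, 714.1 and 1046 against 1148, 1774 and 3137 CPM (log2 fold change -2.02, adjusted p = 0.0695).

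Among 17 basement membrane genes (median -1.80), Lamb2 was higher in Lgr5-Pappa2 cells and Lamb1, Nid1 and Npnt in Col28a1-Slc36a2 cells. Lamb1 and Lamb2 encode laminin chains that can stand in the same place of the trimer. Lamb2 had 555.8, 391.2 and 985.4 CPM against 104.6, 112.6 and 354.1 (log2 fold change 1.89 ± 0.35, adjusted p = 0.0499). Its call was lost without any 1 of the mice, with an adjusted p of 0.0691 (male mouse 1 left out), 0.166 (male mouse 2 left out) and 0.202 (female mouse 1 left out). Lamb1 had 2.23, 18 and 43.6 against 498.3, 588.1 and 785.4 CPM (log2 fold change -5.46 ± 0.75, adjusted p = 0.0152). Nid1, the nidogen gene that links laminin to collagen, had 55, 76.1 and 113.8 against 339.1, 479.4 and 647.2 CPM, and its call was lost with an adjusted p of 0.0843 (male mouse 2 left out) and 0.0949 (female mouse 1 left out). On the list of fibrillar and network collagen genes 16 were tested, with a median of -0.89. Col13a1 alone was called, and it encodes a membrane-bound collagen and not a fibrillar or network one. Its call was lost without the 18 cells with markers of other types (adjusted p = 0.0535 in edgeR).

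Small leucine-rich proteoglycan genes split between the sets. Of 10 tested, Lum, Aspn and Ecm2 were higher in Lgr5-Pappa2 cells and Fmod in Col28a1-Slc36a2 cells, with a median of 0.02. Lum, the gene of the collagen-binding lumican, had 3415, 3018 and 674.3 against 2.6, 41.5 and 9.91 CPM (log2 fold change 7.31 ± 0.96, adjusted p = 0.0134), and was lowest in the female mouse of the first set. Fmod, which encodes fibromodulin, had 0.372, 0.572 and 1.62 against 100.6, 111.7 and 187.5 CPM (log2 fold change -7.40 ± 0.95, adjusted p = 0.0121). Dcn, the decorin gene, had 4206, 3529 and 513.01 CPM in Lgr5-Pappa2 cells against 488.2, 733.6 and 573.1 and was not called (adjusted p = 0.285). Its female value was the lower in the first set. Without female mouse 1, Dcn passed with an adjusted p of 0.0144. Calls were lost for Ecm2 (0.313 without male mouse 2, 0.0521 without female mouse 1) and Fmod (0.052 without female mouse 1).

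Of 13 tested genes on the integrin subunit list (median -1.52), Itga8 and Itgbl1 were higher in Col28a1-Slc36a2 cells, of which Itgbl1 is not itself a subunit gene. Itgbl1, an integrin beta-like gene, had 0, 1.43 and 1.44 against 164.5, 374.7 and 77.3 CPM (log2 fold change -7.61 ± 1.10, adjusted p = 0.0185), and its call was lost with an adjusted p of 0.148 (male mouse 2 left out). Of 26 protease and inhibitor genes (median -0.82), 1 was called in each direction. Mmp2, the gelatinase A gene, had 563.2, 417.8 and 663.1 CPM against 2395, 3154 and 4029.7 (log2 fold change -2.54 ± 0.27, adjusted p = 0.00464). Adamts1, which encodes a proteoglycan-cleaving protease, had 1527, 1044 and 1436 against 397.6, 353.01 and 615.9 CPM (adjusted p = 0.0439), and its call was lost with an adjusted p of 0.0759 (male mouse 1 left out), 0.164 (male mouse 2 left out), 0.178 (female mouse 1 left out) and 0.055 (the 18 cells with markers of other types left out). Fn1, the fibronectin gene, stood outside the lists and was picked after its values were seen: it had 16, 24.2 and 54.2 against 1741, 1882 and 2017 CPM (log2 fold change -6.08 ± 0.42, adjusted p = 0.000804).

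Of 14 Hedgehog pathway genes tested (median -1.18), Hhip was the 1 called. Ptch1, the Hedgehog receptor gene and a usual target of the pathway, had 1.49, 25.5 and 18 against 159.4, 185.2 and 142.9 CPM. Its groups did not overlap, but it did not pass (log2 fold change -3.94, adjusted p = 0.153). Gli1, the transcription factor gene that the pathway switches on, had 7.81, 5.44 and 2.15 against 8.07, 20.7 and 61.6 CPM (adjusted p = 0.793).

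Of 30 Wnt pathway genes (median -0.21), Wnt5a, Lgr6 and Wif1 were higher in Lgr5-Pappa2 cells and Wnt2 in Col28a1-Slc36a2 cells. The Wnt5a ligand gene had 578.5, 1007 and 1098 CPM against 110.2, 67.5 and 199.6 (log2 fold change 2.91 ± 0.42, adjusted p = 0.0185). Wif1, which encodes a secreted inhibitor of Wnts, had 123.4, 181.4 and 103.2 against 0.39, 0.164 and 1.08 CPM (log2 fold change 8.17 ± 1.15, adjusted p = 0.0175), and reached 20 CPM in 19.7% of Lgr5-Pappa2 cells and 0% of Col28a1-Slc36a2 cells. Its call was lost with an adjusted p of 0.085 (male mouse 2 left out). Axin2, a common target of Wnt signals through beta-catenin, had 0.372, 8.59 and 204.5 CPM in Lgr5-Pappa2 cells and 8.72, 13.1 and 97 CPM in Col28a1-Slc36a2 cells, with overlap and no call (adjusted p = 0.906).

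Among 31 TGF-beta and BMP genes (median -0.20), 4 were higher in Lgr5-Pappa2 cells and 2 in Col28a1-Slc36a2 cells. Tgfbi, a matrix protein gene induced by TGF-beta in many cells, had 1499.8, 1690.0 and 1959 CPM against 6.25, 5.0 and 24.1 (log2 fold change 7.55 ± 0.54, adjusted p = 0.000804). The ligand gene Bmp5 had 1677, 1652 and 863.3 against 399.6, 668.6 and 276.2 CPM. Tgfbr3, the co-receptor betaglycan, had 422.7, 579.5 and 493.3 against 64.2, 183.1 and 58.8 CPM, while the signalling receptor Tgfbr2 had 146.1, 519.01 and 516.6 against 913.9, 1333 and 1663. Nbl1, a BMP antagonist gene, had 385.5, 382.8 and 462.2 against 1185, 1527 and 1683 CPM. The 2 receptor genes pointed opposite ways, and calls were lost for Bmp5 (0.0632 without male mouse 1, 0.0873 without male mouse 2, 0.202 without female mouse 1), Tgfbr3 (0.0653 without male mouse 1, 0.0578 without male mouse 2, 0.186 without female mouse 1), Tgfbr2 (0.0551 without male mouse 2, 0.165 without female mouse 1, 0.0505 without the 18 cells with markers of other types) and Nbl1 (0.102 without male mouse 2, 0.148 without female mouse 1).

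Of 22 FGF and PDGF genes (median -0.17), Pdgfra and Fgfr3 were called. Fgfr3, a fibroblast growth factor receptor gene, had 1.12, 0.286 and 36.5 CPM in Lgr5-Pappa2 cells against 366.7, 267.7 and 898.7 (log2 fold change -7.27 ± 1.08, adjusted p = 0.0196). Its call was lost with an adjusted p of 0.0502 (male mouse 1 left out). Pdgfrb, the beta receptor gene of mural cells and fibroblasts, had 172.1, 280.5 and 355.4 against 159.5, 207.1 and 475.2 CPM and overlapped (adjusted p = 0.99). Of 15 insulin-like growth factor genes outside the rule (median -0.50), the binding protein genes Igfbp5 and Igfbp6 were called in opposite directions. Igfbp5 had 2298, 2304 and 1759.9 against 109.2, 66.4 and 30.1 CPM (log2 fold change 5.12 ± 0.39, adjusted p = 0.000838). Igfbp6 had 35.7, 177.9 and 61.6 against 646.2, 823.8 and 835.1 CPM (log2 fold change -3.39 ± 0.48, adjusted p = 0.0182).

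Retinoid and lipid genes were called in 1 direction. Of 17 retinoid genes, Lrat, Adh1 and Aldh1a1 were higher in Col28a1-Slc36a2 cells (median -2.30). Lrat, which encodes the enzyme that makes stored retinyl esters, had 1.12, 1.43 and 1.08 against 330.9, 617.01 and 280.2 CPM (log2 fold change -8.34 ± 0.57, adjusted p = 0.000774). None of 61 Lgr5-Pappa2 cells had 20 CPM of Lrat, against 69.9% in the other set. Adh1, an alcohol dehydrogenase gene that acts on retinol, had 44.6, 69.3 and 175.4 against 1329, 1931 and 1669 CPM (log2 fold change -4.32 ± 0.43, adjusted p = 0.00342), and the retinaldehyde dehydrogenase gene Aldh1a1 had 45.4, 256.7 and 107.7 against 802.7, 1615 and 767.95. All 3 reached 20 CPM in 71 Col28a1-Slc36a2 cells, in no Lgr5-Pappa2 cell and in 37 of 1212 other cells.

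Of 25 lipid storage and fatty acid genes (median -1.15), Plin2 and Slc27a3 were higher in Col28a1-Slc36a2 cells. Plin2 codes for the coat protein of lipid droplets and had 1.12, 14.6 and 37.9 CPM in Lgr5-Pappa2 cells against 242.6, 396.1 and 355.4 (log2 fold change -4.96 ± 0.89, adjusted p = 0.0444). Slc27a3, a fatty acid transport protein gene of the family of the rule gene Slc27a6, had 0, 0 and 1.98 against 58.4, 74.2 and 229.2 CPM. Both calls were lost in some fits, with adjusted p for Plin2 (0.0843 without male mouse 2, 0.0597 without the 18 cells with markers of other types) and Slc27a3 (0.0551 without male mouse 2, 0.122 without female mouse 1, 0.0505 without the 18 cells with markers of other types). Pparg, the regulator of fat cell genes, was at 0 in all Lgr5-Pappa2 sums and had 10.4, 2.38 and 0 CPM in the other set, too low to be tested.

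Among 18 complement genes (median -1.75), 5 were higher in Col28a1-Slc36a2 cells, among them C2, C3, C7 and Cfb, and Clu was higher in Lgr5-Pappa2 cells. C7, a gene of the membrane attack complex, had 1.49, 3.15 and 0.718 CPM in Lgr5-Pappa2 cells against 366.1, 1044 and 153.9 (log2 fold change -8.05 ± 0.51, adjusted p = 0.000774). C3, the central component, had 387.4, 357.03 and 133.4 against 1461, 1920.1 and 2338 CPM (log2 fold change -2.80 ± 0.46, adjusted p = 0.0288). The median Lgr5-Pappa2 cell had 18.02 CPM of C3 and the highest 4262, against a median of 1938 in the other set. Cfb, which forms the alternative pathway convertase, had 0.372, 2.43 and 1.44 against 156.9, 157.5 and 187.1 CPM. Clu, the clusterin gene, whose product inhibits the terminal complex, had 1347, 1272 and 759.6 against 61, 22.6 and 39.4 CPM (log2 fold change 4.84 ± 0.44, adjusted p = 0.00216). Clu was not particular to Lgr5-Pappa2 cells, as the other cells had 1260, 1539 and 767.5 CPM. C3 lost its call with an adjusted p of 0.0555 (female mouse 1 left out).

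Of 26 chemokine, cytokine and adhesion genes, 5 were higher in Col28a1-Slc36a2 cells and none in Lgr5-Pappa2 cells, with a median of -3.68. The chemokine gene Cxcl14 had 14.9, 35.9 and 8.8 against 820.9, 1526 and 876.5 CPM (log2 fold change -5.93 ± 0.42, adjusted p = 0.000804). Vcam1, an adhesion molecule for leukocytes, had 71, 84.7 and 5.03 against 984.3, 1488 and 786.9 CPM (log2 fold change -4.93 ± 0.74, adjusted p = 0.0206), with the female Lgr5-Pappa2 value lowest. Il34, which encodes a ligand of the macrophage receptor Csf1r, had 0, 0.286 and 1.08 against 88.2, 110.9 and 174.01 CPM. Lif, a cytokine gene of the interleukin 6 family, had 3 counts in all Lgr5-Pappa2 cells and 3069 in the other set, a ratio of 423.3-fold (95% counting interval 144.7 to 2054). Kitl, the ligand gene of the Kit receptor, had 0, 0.429 and 0.18 against 46.4, 127.4 and 32.3 CPM. Calls were lost for Il34 (0.0551 without male mouse 2), Lif (0.0551 without male mouse 2, 0.233 without female mouse 1) and Kitl (0.538 without male mouse 2, 0.0839 without female mouse 1, 0.0513 without the 18 cells with markers of other types). Summed markers of macrophages and other leukocytes had 10.02 to 316.4 CPM in Lgr5-Pappa2 sums and 93.03 to 218.9 CPM in Col28a1-Slc36a2 sums, with 6 of 14 markers tested and none called, and Csf1r reached 20 CPM in 4.92% and 16.5% of the cells of the 2 sets. Their part in the complement and chemokine results was not tested. Without the 18 cells with markers of other types, 70 genes were called higher and 91 lower, and 95.7% of these were among those called with all cells.

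Of 50 mesenchymal transcription factor genes on the list and tested, Tcf21, Meox2 and Heyl were higher in Col28a1-Slc36a2 cells and none in Lgr5-Pappa2 cells (median -0.34, equal to that of all genes). Meox2, a homeobox gene of mesenchyme, had 1.12, 0.715 and 1.62 against 296.1, 233.97 and 274.04 CPM (log2 fold change -7.89 ± 0.66, adjusted p = 0.00138). Heyl, a target of Notch signals and also a marker of vascular smooth muscle, had 4.83, 3.43 and 11.9 against 186.7, 333.7 and 350.8 CPM (log2 fold change -5.57 ± 0.63, adjusted p = 0.00667), with 493.6, 682.7 and 852.5 CPM in the other cells. Of the 41 angiogenic and guidance genes (median -0.49), Angptl2, Sema3c and Efnb2 were higher in Lgr5-Pappa2 cells and Vegfd and Slit3 in Col28a1-Slc36a2 cells. Vegfd, a growth factor gene for lymphatic vessels, had 3.96 ± 3.15 CPM in Lgr5-Pappa2 cells against 284.1 ± 62.6 in Col28a1-Slc36a2 cells (SD over 3 mice; log2 fold change -6.37 ± 0.93, adjusted p = 0.019). Sema3c, a semaphorin gene, had 249.8, 678.4 and 246.002 against 16.7, 4.35 and 15.3 CPM, and Efnb2, which encodes the guidance ligand ephrin-B2, had 229.4, 146.8 and 20.1 against 5.99, 0.246 and 0.108. Slit3, a ligand of Robo receptors, had 3.72, 3.72 and 4.67 against 165.1, 80.6 and 415.4 CPM. Angptl2, an angiopoietin-like gene, had 1294, 1456 and 1617 against 239.2, 357.3 and 605.3 CPM. Calls were lost for Sema3c (0.0795 without male mouse 2), Efnb2 (0.148 without male mouse 2), Slit3 (0.154 without female mouse 1) and Angptl2 (0.0809 without male mouse 2, 0.0555 without female mouse 1).

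Receptors and channels that set contractile tone were read next. Of 31 G protein-coupled receptor and RGS genes (median -0.86), Ednrb, Chrm2, P2ry14 and Rgs2 were higher in Lgr5-Pappa2 cells, and Bdkrb1 and Vipr2 in Col28a1-Slc36a2 cells. Ednrb, the endothelin B receptor gene, had 420.5, 646.7 and 558.98 CPM against 2.73, 7.88 and 2.48 (log2 fold change 7.13 ± 0.53, adjusted p = 0.000804). The other cells had 517.1, 448.9 and 228.05 CPM of Ednrb. Rgs2, which encodes a brake on Gq signals, had 2304, 2038 and 1168 against 351.5, 487.3 and 484.8 CPM. Chrm2, the muscarinic receptor gene of smooth muscle, had 63.2, 59 and 89.4 against 0.651, 0.492 and 0.538 CPM. Vipr2, a receptor for vasoactive intestinal peptide, had 0, 0 and 0.898 against 116.6, 68.2 and 123.1 CPM, and Bdkrb1, a kinin receptor gene, 2.23, 0.143 and 1.8 against 172.6, 100.2 and 84. Of these, Ednrb and P2ry14 kept their calls without each mouse, and the rest lost them for Rgs2 (0.0591 without male mouse 1, 0.0829 without male mouse 2), Chrm2 (0.0591 without male mouse 1, 0.289 without male mouse 2, 0.321 without female mouse 1, 0.0505 without the 18 cells with markers of other types), Vipr2 (0.0529 without male mouse 1, 0.0817 without male mouse 2) and Bdkrb1 (0.0788 without male mouse 1, 0.131 without male mouse 2). Ece1, which encodes the enzyme that activates endothelin, lay outside the lists and was picked after its values were seen: it had 473.6, 455.3 and 732.8 against 25.1, 19.9 and 17.1 CPM (log2 fold change 4.72 ± 0.45, adjusted p = 0.00272).

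Of 28 ion channel genes (median -0.61), Kcnj8 and Gja1 were higher in Lgr5-Pappa2 cells and Cacna1d in Col28a1-Slc36a2 cells. Gja1, the gap junction gene connexin 43, had 676.3, 553.1 and 508.9 against 9.69, 25.5 and 24.2 CPM (log2 fold change 4.97 ± 0.53, adjusted p = 0.00464). Kcnj8, the pore gene of a potassium channel gated by ATP and a pericyte marker, had 671.1, 524.5 and 722.9 against 174.96, 132.3 and 187.6 CPM. Cacna1d, a calcium channel gene, had 0, 0.429 and 0.359 against 104.4, 83 and 152.04 CPM. Of 33 cyclic nucleotide and prostanoid genes (median 0.11), Pde1a, Pde4b and Hpgd were higher in Lgr5-Pappa2 cells and Ptgs2 in Col28a1-Slc36a2 cells. Pde4b, a cyclic AMP phosphodiesterase gene, had 1197, 685.9 and 436.7 against 64.1, 121.6 and 57.1 CPM (log2 fold change 3.21 ± 0.44, adjusted p = 0.0162), and Pde1a, one regulated by calcium, 474.02, 176.9 and 274.6 against 37.8, 31.3 and 20.7. Hpgd, whose enzyme breaks down prostaglandins, had 423.5, 164.7 and 90.1 against 29.6, 3.69 and 6.57 CPM, while Ptgs2, whose enzyme starts their synthesis, had 0.372, 0.429 and 0.539 against 73.4, 145.04 and 80.004. Calls were lost for Kcnj8 (0.164 without male mouse 2, 0.201 without female mouse 1), Cacna1d (0.0752 without female mouse 1), Pde1a (0.0591 without male mouse 1, 0.0949 without female mouse 1), Hpgd (0.0642 without male mouse 1, 0.0829 without male mouse 2) and Ptgs2 (0.267 without male mouse 2).

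Genes that often respond to tissue dissociation, the immediate early and heat shock genes, gave 1 call of 35 tested (median 0.15): Dnajb1, a heat shock co-chaperone gene, had 112.6, 108.3 and 95.5 against 531.6, 482.2 and 373.5 CPM, a call lost with an adjusted p of 0.243 (male mouse 2 left out) and 0.148 (female mouse 1 left out). None of 8 proliferation genes tested was called by edgeR. Pcna, the DNA polymerase clamp gene and the member with the highest level, had 95.2, 51.9 and 45.3 against 28.9, 43.8 and 34.7 CPM (adjusted p = 0.872). At an unadjusted p of 0.05, 1359 of all tested genes passed.

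**Figure D4:**
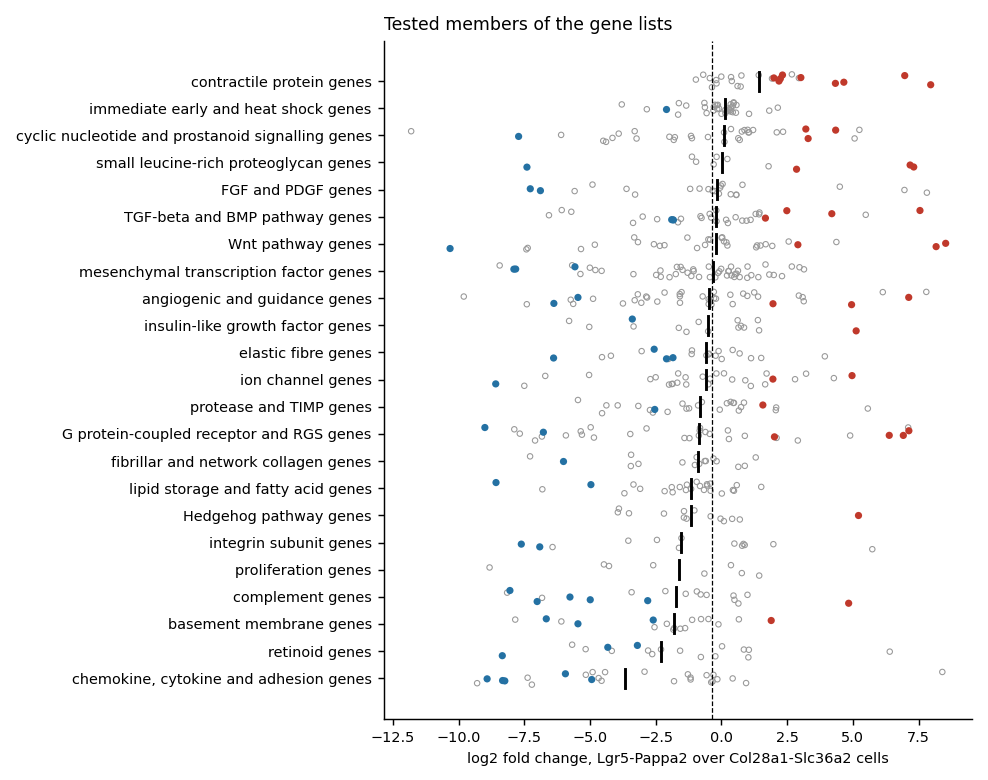
Fitted log2 fold changes (Lgr5-Pappa2 over Col28a1-Slc36a2 cells) of all tested members of the 23 gene lists, 1 circle per gene, filled red or blue where called higher or lower and open where not called. Black bars mark list medians and the dashed line the median of all genes (-0.34); contractile protein genes have the highest median (1.42) and chemokine, cytokine and adhesion genes the lowest (-3.68).

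Outside the lists, the called genes with at least 50 CPM in every mouse of the higher set and no overlap between the sets were ranked by fold change. At the Lgr5-Pappa2 end stood, among others, Megf10, Pnmt, Cdh4, Thbs2, Tcap, Adam33, Agt, Cyp2e1 and Ccdc3. Tcap, the gene of the sarcomere protein telethonin, had 351.3, 177.4 and 339.02 against 3.12, 0.902 and 2.8 CPM (log2 fold change 7.09 ± 0.60, adjusted p = 0.00147). Cdh4, a cadherin gene, had 146.1, 451.8 and 681.6 against 0.586, 1.31 and 0.861 CPM (log2 fold change 8.64 ± 0.63, adjusted p = 0.000804). Thbs2, a matrix thrombospondin gene, had 1213, 674.4 and 1401 against 0.39, 13 and 5.06 CPM (log2 fold change 8.21 ± 1.18, adjusted p = 0.0185).

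Megf10, which encodes a receptor of muscle satellite cells and of phagocytosis, had 121.9, 73.8 and 72.7 CPM in Lgr5-Pappa2 cells and 0 counts in all Col28a1-Slc36a2 cells. Against a floor of 3 counts over that set it was 1006-fold higher. The floor allows for counting only, not for spread between cells or mice. Megf10 had an adjusted p of 0.0341 in edgeR, and of 0.0556 without the 18 cells with markers of other types. It reached 20 CPM in 19.7% of Lgr5-Pappa2 cells and 0% of Col28a1-Slc36a2 cells. Pnmt, the gene of the enzyme that makes adrenaline, had 156.1, 77.6 and 99.7 against 0.0651, 0.082 and 0.323 CPM in 24.6% of Lgr5-Pappa2 cells and 0% of Col28a1-Slc36a2 cells. Agt, the angiotensinogen gene, had 131.6, 257.4 and 293.05 against 0.455, 6.07 and 1.4 CPM, and Adam33, a membrane protease gene, 157.3, 75.7 and 279.9 against 1.17, 0.574 and 1.94. In the other cells Adam33 had 251.3, 188.2 and 275.9 CPM, and Agt 26.6, 14.7 and 76.9. Cyp2e1, a cytochrome P450 gene, had 1290.1, 1075 and 651.1 against 2.67, 33.4 and 4.74 CPM (log2 fold change 6.99 ± 0.84, adjusted p = 0.00884), and Ccdc3, a gene of a secreted protein, 1216, 382.4 and 353.9 against 52.8, 1.39 and 1.4.

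At the Col28a1-Slc36a2 end stood Amph, Ablim3, Nt5dc2, Ppp1r3a, Nebl, Lbp, Sh3bp5, St8sia2, Fam20a and Slc38a5. Slc38a5, a glutamine transporter gene, had 0.372, 3.58 and 2.51 against 383.6, 401.7 and 524.7 CPM (log2 fold change -7.79 ± 0.71, adjusted p = 0.00216), and reached 20 CPM in 0% of Lgr5-Pappa2 cells and 75.7% of Col28a1-Slc36a2 cells. Nebl, the gene of the actin-binding nebulette, had 1.49, 1.14 and 0.359 against 222.3, 386.98 and 212.2 CPM (log2 fold change -8.22 ± 0.73, adjusted p = 0.00182). Ablim3, another actin-binding gene, had 0, 0.286 and 1.26 against 182.6, 204.4 and 195.2 CPM (log2 fold change -8.75 ± 1.06, adjusted p = 0.00897), so genes of actin-binding proteins were called on both sides. Fam20a, which encodes a secretory pathway pseudokinase, had 0.372, 0.715 and 3.77 against 210.9, 255.96 and 404.8 CPM, and Sh3bp5 0, 1.57 and 1.8 against 175.9, 365.6 and 219.98. Lbp, which encodes the lipopolysaccharide-binding protein, had 0, 0.286 and 1.26 against 92.8, 92.9 and 143.5 CPM. Amph, the amphiphysin gene, had 2 counts in all Lgr5-Pappa2 cells, a ratio of 564.9-fold (95% counting interval 156.2 to 4667). St8sia2, Ppp1r3a and Nt5dc2 had 4 to 12 counts there and 3959 to 4388 in the other set. Calls were lost for Amph (0.244 without male mouse 2, 0.148 without female mouse 1), Nt5dc2 (0.0843 without male mouse 2), Ppp1r3a (0.297 without male mouse 2), Lbp (0.0928 without male mouse 2, 0.0597 without female mouse 1) and St8sia2 (0.0843 without male mouse 2, 0.0529 without female mouse 1).

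The sums could hide a few strong cells, so single cells were read for markers that the rule did not use. These markers were called on the sums of the same cells, so the counts are a description. Of the 8 called myofibroblast markers, the median Lgr5-Pappa2 cell had 7 at 20 CPM and no cell had fewer than 5. The median Col28a1-Slc36a2 cell had 4 and the highest had 7. Among the 1212 other cells the median was 5, so these markers were not particular to Lgr5-Pappa2 cells. All 8 reached 20 CPM in 30 of 61 Lgr5-Pappa2 cells and in 60 of the other cells. Of the 9 called alveolar fibroblast markers, the median cell had 1 in the Lgr5-Pappa2 set, with a maximum of 3, and 8 in the Col28a1-Slc36a2 set. One Col28a1-Slc36a2 cell, of male mouse 1, had 0 of the 9. The 3 mice were alike in this, with medians of 1 to 1.5 in Lgr5-Pappa2 cells and 7 to 8 in Col28a1-Slc36a2 cells. At least 3 of the myofibroblast markers reached 20 CPM in 88 Col28a1-Slc36a2 cells, and at least 3 fibroblast markers in 5 of 61 Lgr5-Pappa2 cells.

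Pairs of genes showed the same. Hhip and Pdgfra both reached 20 CPM in 2 of 61 Lgr5-Pappa2 cells and in 54 Col28a1-Slc36a2 cells. Hhip and Lgr6 did so in 33 and 0 cells, and Npnt and Tcf21 in 0 and 80. Within the Lgr5-Pappa2 set, Chrm2, Megf10 and Wif1 were found in 10 to 12 of 61 cells, against 61 for Hhip and Enpp2, 57 for Tgfbi and 56 for Lum. Within the Col28a1-Slc36a2 set, Lif, Ptgs2 and Amph were found in 27.2%, 24.3% and 28.2% of cells, against 99% for Npnt, 99% for Adh1, 99% for Inmt and 97.1% for Itga8. For male mouse 1 the 2 plates could be read apart, with 5 Lgr5-Pappa2 cells on each. Hhip had 4452 CPM on plate 045s and 6447 on 046s in Lgr5-Pappa2 cells, and 240.6 and 169.03 in the other set. Lum was also near between the plates in Lgr5-Pappa2 cells, with 3278 and 2836 CPM. Other genes lay further apart there: Pdlim3 had 168.4 and 798.1 CPM, Lmod1 384.4 and 61.2, and Adam33 379.85 and 4.05. These plate values are without TMM factors.

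**Figure D5:**
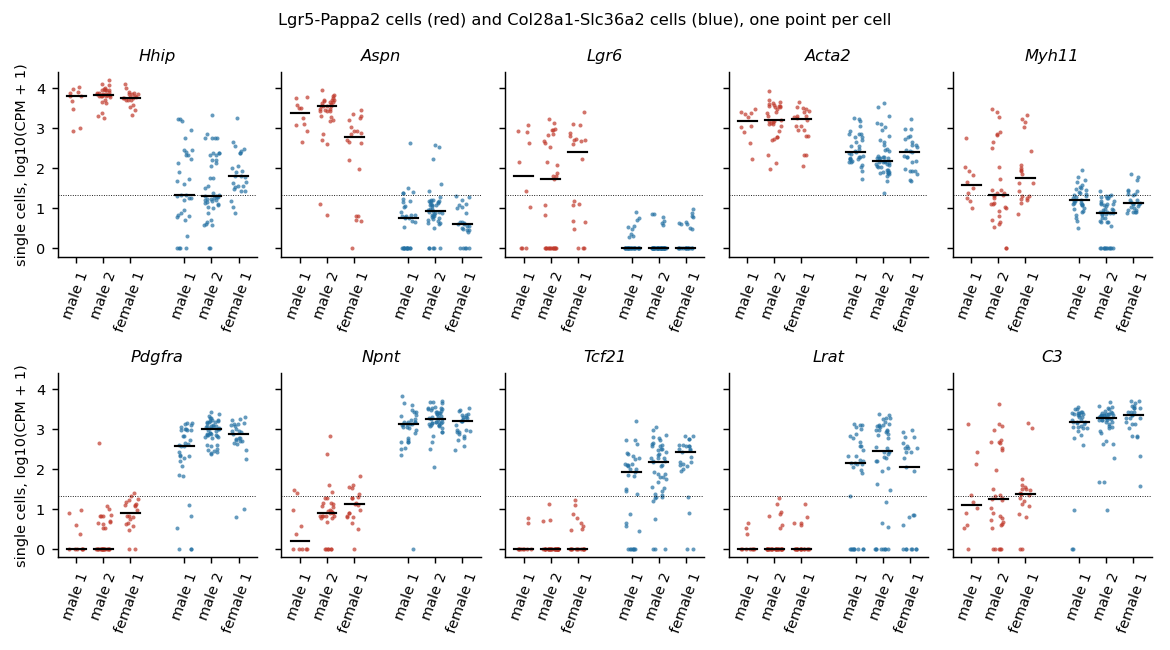
Single-cell levels, as log10(CPM + 1), of 10 genes outside the rule in the 61 Lgr5-Pappa2 cells (red) and the Col28a1-Slc36a2 cells (blue; 33, 45 and 25 cells) by mouse, with black bars at medians and a dotted line at 20 CPM. The medians of Hhip and Acta2 are higher in red than in blue, while most red points of Pdgfra, Tcf21 and Lrat lie under the line.

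Marker lists of the other classes that the sort could hold were read last. Of 9 airway smooth muscle markers tested, 8 were higher in Lgr5-Pappa2 cells (Hhip, Actg2, Tgfbi, Lum, Chrm2, Wnt5a, Acta2 and Myh11), and several of these are on the lists above as well. Their summed level was 12350 to 15466 CPM in Lgr5-Pappa2 sums, 898 to 946 in Col28a1-Slc36a2 sums and 7170 to 12527 in the other cells. Summed vascular smooth muscle markers had 1795 to 2558, 675 to 796 and 7443 to 12709 CPM in the same order. Of 7 of these tested (median 2.19), Acta2 and Myh11 were higher in Lgr5-Pappa2 cells, Heyl was higher in the other set and 4 were not called. Of 9 pericyte markers tested (median 0.70), Kcnj8 was higher in Lgr5-Pappa2 cells and 8 were not called. Summed pericyte markers had 1461 to 1856 CPM in Lgr5-Pappa2 sums, 576.9 to 1008 in Col28a1-Slc36a2 sums and 3493 to 5767 in the other cells. None of 11 adventitial fibroblast markers was called by edgeR (median -1.84), and their summed levels overlapped, with 1237 to 5285 CPM in Lgr5-Pappa2 sums and 2138 to 2755 in Col28a1-Slc36a2 sums, against 908 to 2679 in the other cells. Of 3 Schwann cell markers tested, S100b was higher in Lgr5-Pappa2 cells (253.9, 118.1 and 126.2 against 2.34, 3.69 and 1.29 CPM), while no cell of either set had 20 CPM of Sox10. No mesothelial marker passed the filter, and none of 10 endothelial and 4 epithelial markers tested was called by edgeR.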

How the data were processed

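Each sample is 1 cell. The values are unnormalized read counts, whole numbers for every Ensembl gene in every cell, as the authors deposited them. Per the submitters' processing notes, bcl2fastq, Bowtie, Bowtie2, featureCounts and Subread were used with GRCm38 and mm10. Their roles, and how strand and multi-mapped reads were handled, are not given in the sources used here. Values of overlapping, antisense and near-identical genes are therefore uncertain. Of 46517 Ensembl genes, 46005 took a symbol from GENCODE M21 (GRCm38), and the rest held 0.184% of counts. No 2 cells had identical counts.

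The members and gene lists were chosen with earlier results of these data known. Cells were selected on CPM of the 13 rule genes, which were then left out of the tests. Counts were summed per set and mouse, since cells of 1 mouse are not replicates. edgeR 4.0.16 (quasi-likelihood, TMM, filterByExpr by set, mouse as block, two-sided, Benjamini-Hochberg over all tested genes, call at 0.05) was the test, checked on simulated counts. Pairing comes from the labels, as both sets came from the same 3 mice. A standard error is the size of the log2 fold change over the root of its F value. Per list, up to 2 called genes per direction with at least 20 CPM were named, or, with no call, the most abundant one. Outside lists, 10 genes per direction with at least 50 CPM in every mouse of the higher set were named, and Acta2, Cspg4 and the markers whatever their values. Other genes given values were picked after these were seen. Alternatives were DESeq2 1.42.0 and other filters, scalings, rules and cells. No doublet caller was run. A few genes that the rule names are not reported here.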

Additional observations from a re-analysis of the deposited data

Results flagged for a closer look

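In 4 genes both male mice differed between the sets in one direction and the female mouse in the other. They are 3.23% of the genes searched, where 21.2% of all 12652 genes tested had the same pattern of signs. The pattern was thus rarer in the searched genes, and a called gene without overlap between the sets cannot show it. These shares are a description and no test. These 4 genes set 1 mouse, which had a plate of its own, against the others. An effect of sex was not tested. Dcn, the decorin gene, was higher in Lgr5-Pappa2 cells of both male mice, while in female mouse 1 the log2 ratio of Lgr5-Pappa2 over Col28a1-Slc36a2 sums, each with 1 CPM added, was -0.16. Axin2, a Wnt target gene, was lower in Lgr5-Pappa2 cells of the male mice and had a log2 ratio of 1.07 in the female mouse. Pdgfrb had a ratio of -0.42 and Postn, a matrix gene of mural cells, one of 0.23 in the female mouse.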

How the results depend on the processing

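With no replicate block (the paired design dropped), edgeR called 82 genes higher and 130 lower, and 68.9% of these were among the 78 and 100 of the design with the block. As percentages of the genes tested, set against 0.617% higher and 0.790% lower, DESeq2 called 2.79% and 8.01%, the fit with all other cells as another set 0.993% and 1.88%, and no filter on low counts 0.560% and 0.980% of 23377 genes. Leaving out each mouse gave 0.385% to 0.639% higher and 0.534% to 0.868% lower, and 90 genes were called in all 3 such fits and with every mouse. Asking for 2 rule genes gave 0.360% and 0.173%, and asking for 4 gave 0.364% and 0.417%. With plate 045s alone for male mouse 1, 0.397% were called higher and 0.505% lower, and with 046s alone 0.391% higher. Of the pathway list members tested, 6.52% were called higher and 7.79% lower. These were 10.3% and 20.9% in DESeq2, 3.70% and 1.68% with 2 rule genes, 3.39% and 4.19% with 4, and 3.44% to 5.31% and 5.14% to 8.67% with a mouse left out. They were 4.07% higher with plate 046s only, 5.33% lower with 045s only, 11.5% lower with no filter and 11.2% lower with the other cells in the fit. The cause of these shifts was not tested.

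The share of Lgr5-Pappa2 cells became 3.83% in male mouse 1, 11.4% in male mouse 2 and 13.2% in female mouse 1 with 2 rule genes, and 3.12% in male mouse 2 and 2.70% in female mouse 1 with 4. That of Col28a1-Slc36a2 cells became 7.96% in male mouse 1 with 2, and 3.37% in male mouse 1 and 7.39% in male mouse 2 with 4. Among 88 named genes, no called gene changed direction in any setting run, and 21 of 82 kept their call in all. Rules with 2 and 4 genes lost 49 and 36 of these calls. Of genes not called, Cspg4 reversed to -0.073 (2 genes), -0.26 (4 genes) and -0.085 (counts thinned to the lowest total). Fgf10 lay between -1.05 and 0.45 with a mouse left out, the latter without female mouse 1, and at 2.01 in cells with a count in at most 1 gene of the other set, which left 1 female Col28a1-Slc36a2 cell. The median log2 fold change of all genes moved from -0.34 to 0.04 with no replicate block and to 0.06 in DESeq2. With counts thinned to the lowest cell total, 10137 genes could be tested, of which 0.641% were called higher and 0.996% lower.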

Other observations

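Further genes outside the lists were called in each direction, and were picked after their values were seen. Higher in Lgr5-Pappa2 cells were Gper1, the membrane estrogen receptor gene, with 766.6, 438.6 and 669.8 against 51.9, 17.6 and 62.5 CPM (log2 fold change 3.98 ± 0.42, adjusted p = 0.00464), and Cd9, a tetraspanin gene, with 1072, 650.7 and 441.01 against 32.8, 12.6 and 16.4 CPM (log2 fold change 5.16 ± 0.41, adjusted p = 0.00103). Nampt, which encodes an enzyme of NAD synthesis, had 809.4, 417.6 and 181.9 against 22.3, 14.4 and 3.34 CPM (log2 fold change 5.26 ± 0.46, adjusted p = 0.00182). Scx, the tendon transcription factor gene scleraxis, had 196.7, 31.3 and 53.9 against 0, 0 and 0.215 CPM, and its call was lost with an adjusted p of 0.142 (male mouse 1 left out), 0.0503 (male mouse 2 left out) and 0.0535 (the 18 cells with markers of other types left out). Besides Megf10, Plxdc1 was the only called gene with 0 counts in all Col28a1-Slc36a2 cells. Against the same floor, which allows for counting only, it was 1221-fold higher in the other set (17.1, 160.1 and 63 CPM). Its call was lost with an adjusted p of 0.318 (male mouse 2 left out) and 0.0565 (the 18 cells with markers of other types left out).

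Higher in Col28a1-Slc36a2 cells were Tmem119, with 1.49, 3.29 and 6.64 against 591.5, 793.6 and 836.01 CPM (log2 fold change -7.75 ± 0.52, adjusted p = 0.000774), and Dpep1, a membrane dipeptidase gene, with 1.86, 3.29 and 7.18 against 599.6, 866.7 and 616.5 CPM (log2 fold change -7.53 ± 0.58, adjusted p = 0.000896). Hsd11b1, whose enzyme activates glucocorticoids, had 7.81, 21 and 3.23 against 777.2, 1252 and 767.5 CPM (log2 fold change -6.77 ± 0.54, adjusted p = 0.000978). Cdh11, a mesenchymal cadherin gene, had 3.72, 2.58 and 5.21 against 495.6, 632.6 and 647.7 CPM (log2 fold change -7.31 ± 0.49, adjusted p = 0.000774), while Cdh4 was the cadherin gene higher in Lgr5-Pappa2 cells. Macf1, which links actin and microtubules, had 311.9, 209.8 and 249.8 against 1322, 1663 and 1273 CPM (log2 fold change -2.47 ± 0.31, adjusted p = 0.0105).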
